A study of Homo sapiens with 16 samples.

Results

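Ketogenic and high fat diets were compared in A375 lung metastases that received no inhibitors. A375 is an established human melanoma line, and the subline used was A375 MA2-Luc. Libraries were taken by their labels: 4 on the ketogenic diet and 4 on the high fat diet, 8 of the 16 libraries in the series. All 8 came from cells transferred by the retro-orbital route at 250000, per the label, into NSG mice, whose own immune system is largely missing, and were collected as metastases from the lungs. The treatment label of these 8 is none, and the sources do not say whether a vehicle was given. The other 8 libraries, 4 per diet, came from mice given BRAF kinase and MEK 1/2 inhibitors by gavage 3 times a week for 5 weeks. The sources used here do not give the composition and duration of the diets, the age and sex of the mice or the number of mice behind each library. The design text calls the 4 libraries of a group biological replicates and also speaks of a cultured line, so each p-value measures the spread between these libraries, whatever they share.

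Both diets are rich in fat. A ketogenic diet also restricts carbohydrate so far that the liver exports the ketone bodies acetoacetate and beta-hydroxybutyrate, which other tissues turn back into acetyl-CoA, and insulin falls. A cell that prepares to divide releases E2F transcription factors from the retinoblastoma protein, and E2F then switches on the genes that license, copy and repair DNA. Ribosomal proteins, translation factors and the host genes of small nucleolar RNAs share a pyrimidine-rich start, which couples their translation and RNA stability to growth signalling through mTOR.

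In these libraries DNA replication was the gene list with the largest share of members that rose on the ketogenic diet, so the promoter stretches of 6 of them are shown first. The stretches are RefSeq sequence (GRCh38.p14) upstream of the annotated start, in the direction of transcription. They belong to the replication genes with the smallest p among those with an E2F word and 1 listed start: E2F1 itself, the DNA ligase LIG1, the helicase subunits GINS2 and MCM6, the factor E2F2 and the polymerase alpha subunit POLA2. Capitals mark the words TTTCCCGC, TTTGGCGC, TTTCGCGC or TTTGCCGC on either strand, which may overlap.
E2F1, minus strand of chr20:33686386-33686445: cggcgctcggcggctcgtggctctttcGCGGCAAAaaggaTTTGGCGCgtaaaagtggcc
LIG1, minus strand of chr19:48170425-48170484: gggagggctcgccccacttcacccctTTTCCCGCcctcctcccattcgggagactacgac
GINS2, minus strand of chr16:85688955-85689014: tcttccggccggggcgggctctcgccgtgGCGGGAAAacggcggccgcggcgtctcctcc
MCM6, minus strand of chr2:135876496-135876555: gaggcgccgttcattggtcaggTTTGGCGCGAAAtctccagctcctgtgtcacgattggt
E2F2, minus strand of chr1:23531242-23531301: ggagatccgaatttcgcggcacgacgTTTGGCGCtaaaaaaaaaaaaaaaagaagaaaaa
POLA2, plus strand of chr11:65261883-65261942: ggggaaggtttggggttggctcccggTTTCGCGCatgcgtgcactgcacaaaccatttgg
The match placed here for each of the 6 lay within 114 bases of the start, and MCM6 had 4 matches upstream, 2 of them in the stretch shown. In E2F1 the nearer of 2 matches was 13 to 20 bases upstream, in GINS2 24 to 31 bases, in E2F2 35 to 42, in POLA2 46 to 53, in MCM6 79 to 86 and in LIG1 107 to 114.

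Over the replication list, 22 of the 36 members with a listed promoter held one of these words between 250 bases before and 50 after a start (61.1%). The share was 6.24% of the 11463 tested genes with a listed promoter and 3.99% of all 27305 genes of the table. Among genes that rose on the ketogenic diet it was 11% (111 of 1006), and among genes that fell 4.13% (26 of 629). The words TTTGAA or TTCGAA, the core of the element that represses mitotic genes outside division, occurred in 22 of 29 mitosis members (75.9%), against 15.9% of tested genes. A match describes letters in a window and not a bound site.

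Of 16012 genes tested, 2163 (13.5%) differed between the diets at an adjusted p of 0.05: 1280 (7.99%) were higher and 883 (5.51%) lower on the ketogenic diet. The test was edgeR's quasi-likelihood test on all 16 libraries, with p-values adjusted by Benjamini-Hochberg over all genes tested, and every adjusted p below is from it unless another tool is named. Log2 fold changes are ketogenic over high fat diet, with standard error (SE) and 4 libraries per group, and levels are counts-per-million (CPM) scaled by TMM. The changes were moderate: the median absolute log2 fold change of called genes was 0.62, and 249 rose and 213 fell more than 2-fold. In 1968 of the 2163 the lowest library of one diet lay above the highest of the other, as it did in 25.5% of all genes tested. Protein-coding genes were 97.7% of the genes that rose and 86.6% of those that fell, against 87.7% of genes tested, while long non-coding RNAs were 1.48%, 6.68% and 6.57% in that order. The median longest transcript was 3030 bases in genes that rose, 4104 in genes that fell and 3497 in all genes tested.

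The libraries set limits that bear on every count below. Totals ran from 38573900 to 77251525 estimated counts in the 8 libraries. Ribosomal RNA took 21.7, 36.7, 50 and 22.3% of them on the high fat diet and 25.9, 33.7, 20.02 and 15.2% on the ketogenic diet, a log2 difference of -0.44 (two-sided exact permutation p = 0.314, where 0.0286 is the smallest that 70 assignments allow). Without the 3 libraries over 30% (high fat 2 and 3, ketogenic 2), edgeR called 0 genes, with 2668 at an unadjusted p under 0.05. On the same 5 libraries DESeq2 called 860 and limma voom 306. All 2162 of the called genes that still had a value kept their direction there, with a median log2 change of 0.58 in that direction. The kept direction was largely fixed in advance, since these libraries took part in the calls and 1968 of the 2163 did not overlap. When the share of ribosomal RNA was a covariate over all 16 libraries, 1747 genes were called, 1673 of them shared with the 2163. Scaling by library size alone moved the median of all genes from -0.02 to 0.15 and called 1505 higher and 142 lower, so 91.4% of calls were higher, against 59.2% with TMM. Of the 141 genes examined under every setting that gave them a value, 0 changed direction. The settings reuse these libraries. The cell type marker lists were not examined this way as a whole, though CORO1A, DCT and ACTA2 were among the 141. High fat library 4 was the least like its own group (median Spearman rho 0.979 over genes, others 0.993 to 0.994). Ketogenic library 4 was the ketogenic library nearest the high fat group in 1490 of the called genes (68.9%).

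**Figure D1:**
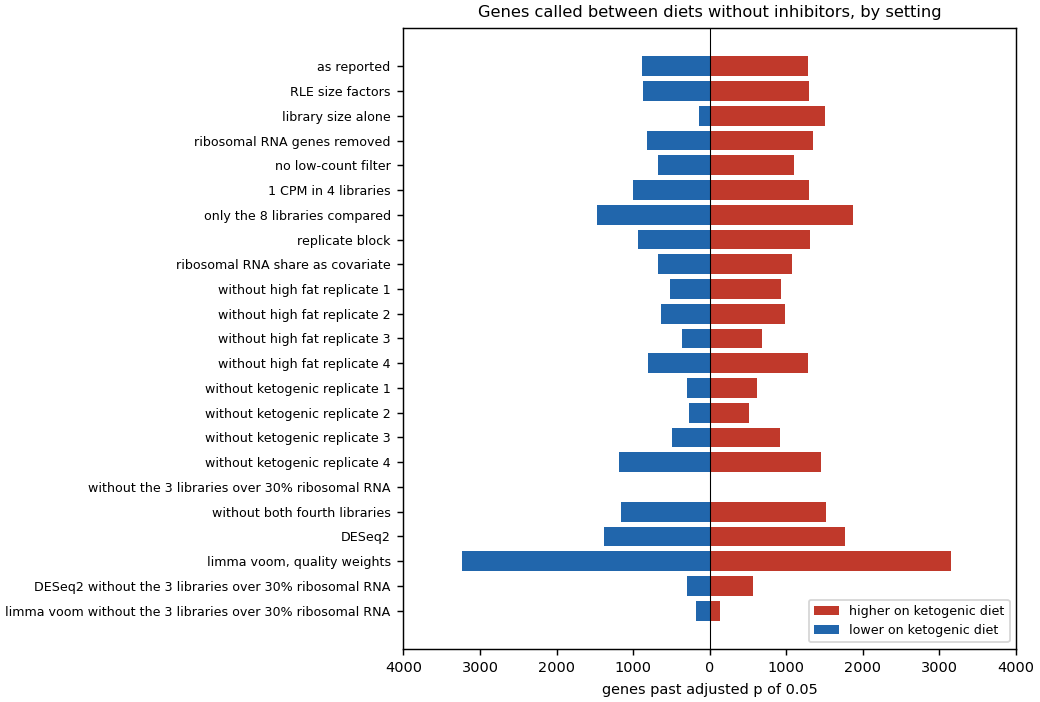
Genes past an adjusted p of 0.05 (x axis, number of genes) between the ketogenic and the high fat diet without inhibitors, for each setting (y axis), with genes higher on the ketogenic diet to the right and lower to the left. As reported, 1280 were higher and 883 lower, the bar without the 3 libraries over 30% ribosomal RNA is empty in edgeR, and DESeq2 on the same libraries called 860.

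The 12 strongest rises by fold, among genes of at least 5 CPM whose groups did not overlap, were CYP24A1, IL7R, CORO1A, S100A3, IGFBP5, TFRC, LRRC17, SAMD11, RRM2, E2F2, DKK1 and HSPA1B. TFRC, the transferrin receptor that brings iron into the cell (chromosome 3, 196027183 to 196082189), was at 16.7, 17.3, 18.4 and 20.4 CPM in high fat libraries 1 to 4 and at 118, 184, 76.2 and 36.9 CPM in ketogenic libraries 1 to 4. Every ketogenic library lay above every high fat library, and ketogenic library 4 lay nearest to them (log2 2.52, SE 0.41, adjusted p = 0.00366). IGFBP5, which binds insulin-like growth factors, was at 10.4, 16.5, 10.9 and 9.89 CPM in high fat libraries 1 to 4 and at 43, 115, 63.3 and 71.1 CPM in ketogenic libraries 1 to 4 (log2 2.62, SE 0.52, adjusted p = 0.00762). It did not overlap, and ketogenic library 1, not 4, was the lowest of its group. LRRC17, a secreted leucine-rich repeat protein, was at 2.12, 1.62, 1.08 and 0.647 CPM in high fat libraries 1 to 4 and at 7.32, 5.94, 7.87 and 5.04 CPM in ketogenic libraries 1 to 4 (log2 2.25, SE 0.33, adjusted p = 0.00235). CYP24A1, which breaks down active vitamin D, rose most of all on the log scale, with 0.553, 0.996, 0.479 and 0.297 CPM on the high fat diet and 1.59, 12.7, 2.14 and 3.76 CPM on the ketogenic diet (log2 3.13, SE 0.76, adjusted p = 0.0154). Ketogenic library 2 was far above the others there, and also in S100A3, a calcium-binding protein, at 1.77, 1.8, 1.44 and 4.41 and 9.54, 43.1, 7.62 and 9.19 CPM (log2 2.88, SE 0.69, adjusted p = 0.0163). Without ketogenic library 2 the log2 change of S100A3 was 1.89. The calls of CYP24A1 and S100A3 ended without that library or without high fat library 3 (adjusted p up to 0.0698 and 0.0629). DKK1, a secreted Wnt antagonist, was at 1.85, 2.45, 2.08 and 6.46 and then 13.8, 16.02, 15.2 and 8.12 CPM (log2 2.04, SE 0.57, adjusted p = 0.0303), with high fat library 4 close to ketogenic library 4. Its call ended without any 1 of the first 3 libraries of either diet (up to 0.0862). SAMD11, whose protein carries a SAM domain, rose by 2.24 (adjusted p = 0.0365) and lost its call without any 1 of the 8 libraries (up to 0.112).

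Among the same 12 strongest rises were 2 genes of the leukocyte marker list, CORO1A, an actin-binding coronin of blood cells, and IL7R, the interleukin-7 receptor chain. CORO1A was at 0.822, 1.3, 0.814 and 0.297 CPM in high fat libraries 1 to 4 and at 7.73, 6.58, 5.96 and 3.93 CPM in ketogenic libraries 1 to 4 (log2 2.91, SE 0.37, adjusted p = 0.00171), and its call held without each of the 8 libraries in turn. IL7R was at 0.174, 0.845, 0.598 and 2.03 CPM on the high fat and 6.14, 10.04, 9.02 and 2.47 CPM on the ketogenic diet (log2 2.92, SE 0.82, adjusted p = 0.0316), with high fat library 4 near ketogenic library 4. Its call ended without any of 6 libraries, those other than the fourth of each diet (adjusted p up to 0.0902). The 15 leukocyte markers summed to 1.88 to 3.08 CPM on the high fat diet and 7.15 to 17.4 CPM on the ketogenic diet. The defining markers stayed near 0 on both: the pan-leukocyte gene PTPRC was at 0.0479 to 0.108 and at 0 to 0.146 CPM, the T cell gene CD3D was above 0 in 1 of the 8 libraries, and 9 of the 15 averaged under 0.05 CPM. Summed macrophage and neutrophil markers overlapped between the diets (45.8 to 61.6 against 42.3 to 75.3 CPM). That sum rested mostly on CD68 (43.5 to 58.6 against 35.9 to 68.7 CPM). Of 6 members tested 2 rose and 0 fell. LYZ (0.325 to 0.875 against 2.49 to 4.74 CPM) and FCER1G (0.168 to 0.412 against 0.934 to 1.62 CPM) did not overlap. CSF1R overlapped and stayed at or under 0.332 CPM. Summed markers of red cells and plasma proteins did not overlap (6.94 to 8.84 against 13.1 to 17.6 CPM), mostly through the protease inhibitor SERPINA1 (4.93 to 6.82 against 10.3 to 12.4 CPM). The red cell gene HBB stayed at or under 0.291 CPM. Summed endothelial markers were 121 to 133 against 145 to 160 CPM, fibroblast and pericyte markers 147 to 173 against 88.3 to 147 CPM, lung epithelial markers 161 to 198 against 132 to 163 CPM and adipocyte markers 79.0 to 163 against 132 to 240 CPM. The endothelial, epithelial and adipocyte sums rested mostly on a few genes that are not particular to those cells. LPL was at 78.1 to 162 against 132 to 239 CPM, while the adipocyte genes ADIPOQ and FABP4 were at 0 in all 8 libraries. ENG was at 56.2 to 96.2 against 91.2 to 104.7 CPM, with the endothelial cadherin CDH5 at 0. KRT18 was at 109 to 155 against 112 to 129 CPM and KRT8 at 35.9 to 42.9 against 8.79 to 27.0 CPM. The epithelial gene EPCAM stayed at or under 0.156 CPM. The fibroblast and pericyte sum rested mostly on ACTA2 (53.9 to 67.1 against 25.1 to 50.1 CPM), FBLN1 (33.0 to 58.8 against 27.0 to 46.1 CPM) and PDGFRB (24.7 to 29.8 against 12.3 to 18.3 CPM). COL1A1 (0.857 to 1.69 against 0.888 to 1.72 CPM) and DCN (1.61 to 2.92 against 0.903 to 3.31 CPM) were low and overlapped. The surfactant gene SFTPC was at or near 0 throughout. What part other cells take in any gene below was not tested, and in bulk RNA fewer cells of a type cannot be told apart from less RNA per cell. The label melanoma was met by SOX10, the neural crest factor, at 726 to 934 CPM and MITF, the melanocyte master regulator, at 99.2 to 135 CPM. The pigment genes were low: MLANA stayed under 0.2 CPM, TYRP1 at or under 0.300 CPM and TYR at or under 0.922 CPM. PMEL was at 1.03 to 5.07 CPM and DCT at 0.23 to 5.39 CPM.

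The 12 strongest falls by the same rule were BEST1, LOC729732, PAPPA, C6orf48, SHC2, RHBDL1, COL15A1, DNHD1, MTRNR2L1, ITIH6, WIPF3 and GAS5. PAPPA, a protease that frees insulin-like growth factor from its binding proteins (chromosome 9, 116153804 to 116402322), was at 13.9, 18.4, 15.4 and 29.2 CPM in high fat libraries 1 to 4 and at 3.29, 4.41, 4.99 and 7.64 CPM in ketogenic libraries 1 to 4 (log2 -1.93, SE 0.37, adjusted p = 0.00554). BEST1, a chloride channel, was at 15.3, 11.2, 14.3 and 47.5 CPM on the high fat and 4.64, 3.26, 4.4 and 7.32 CPM on the ketogenic diet (log2 -2.18, SE 0.40, adjusted p = 0.00503). The highest value in both genes was that of high fat library 4, by a wide margin in BEST1, and the diets did not overlap in either. RHBDL1, a rhomboid-like membrane protein, fell from 5.16 ± 1.22 to 1.41 ± 0.52 CPM (log2 -1.88, SE 0.34, adjusted p = 0.00438), and DNHD1, a dynein heavy chain domain protein, from 59.2 ± 13.5 to 17.1 ± 4.31 CPM (log2 -1.79, SE 0.34, adjusted p = 0.00554). COL15A1, a basement membrane collagen, was at 27.2, 25.8, 30.2 and 93.2 and then 15.98, 6.17, 14.98 and 11.2 CPM (log2 -1.87, SE 0.41, adjusted p = 0.0108). Here high fat library 4 was at 93.2 CPM against 25.8 to 30.2 in the other 3, and without it the log2 change was -1.20. ACAN, the proteoglycan aggrecan, was at 932, 868, 1072 and 693 and 535, 234, 491 and 422 CPM (log2 -1.08, SE 0.26, adjusted p = 0.0131). MTRNR2L1, a nuclear near-copy of the mitochondrial 16S ribosomal RNA gene whose reads cannot be separated from that gene with certainty, fell from 123 ± 29.4 to 35.4 ± 7.18 CPM (log2 -1.79, SE 0.31, adjusted p = 0.00438). Calls of these 7 held without each library in turn. Others among the 12 strongest falls depended on single libraries. ITIH6, an inter-alpha-trypsin inhibitor family chain (log2 -1.78, adjusted p = 0.0382), lost its call without any library except ketogenic 4 (up to 0.106), and SHC2, a neuronal Shc adaptor (log2 -1.89, adjusted p = 0.0389), without any of the first 3 of either diet (up to 0.122). WIPF3, an actin regulator (log2 -1.75, adjusted p = 0.0182), lost its call without high fat 3 or ketogenic 1 or 2 (up to 0.0662), and the transcript LOC729732 (log2 -1.99, adjusted p = 0.0226) without high fat 1 or 3 or ketogenic 2 (up to 0.0758).

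**Figure D2:**
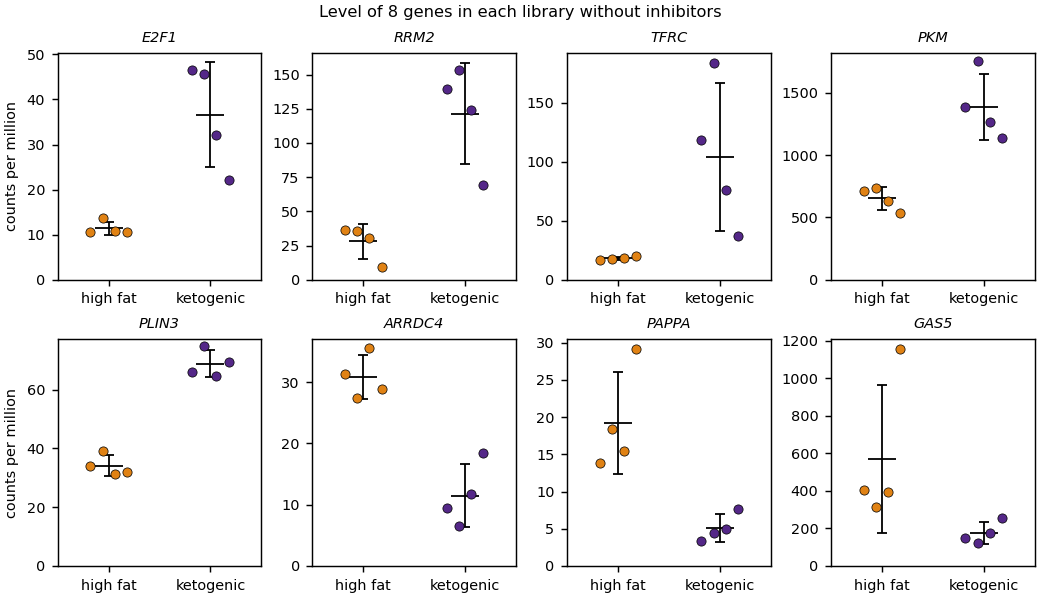
CPM (y axis, linear, from 0) of 8 genes in each library without inhibitors, with points for libraries 1 to 4 from left to right and a line and bar for the mean and SD of 4. No gene shown overlapped between the diets, ketogenic library 4 lay nearest to the high fat libraries in E2F1, RRM2, TFRC, PKM, ARRDC4, PAPPA and GAS5, and high fat library 4 stood at 1156 CPM in GAS5.

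DNA replication had the largest share of calls among the 34 lists. Of 42 members tested, 38 rose (90.5%, against 7.99% of all genes) and 0 fell, with a median log2 fold change of 1.09 against -0.02 for all genes tested. The list, like all others here, was drawn up with earlier results of these data known. E2F1, the activator of the G1 to S transition (chromosome 20, 33675683 to 33686404), whose promoter with 2 E2F words is shown above, was at 10.7, 13.6, 10.8 and 10.5 CPM in high fat libraries 1 to 4 and at 46.6, 45.6, 32.2 and 22.1 CPM in ketogenic libraries 1 to 4 (log2 1.69, SE 0.22, adjusted p = 0.00171). The high fat libraries were nearly level, while the ketogenic libraries spread from 22.1 to 46.6 CPM, all above them. RRM2, the subunit of ribonucleotide reductase that supplies deoxynucleotides, was at 36.6, 35.8, 30.2 and 9.64 CPM in high fat libraries 1 to 4 and at 139, 153, 124 and 69.2 CPM in ketogenic libraries 1 to 4 (log2 2.12, SE 0.38, adjusted p = 0.00524). Lowest of its group was high fat library 4, and ketogenic library 4 of its own. FEN1, the flap endonuclease of Okazaki fragments, was at 53.5, 51.6, 45.6 and 44.9 and 122, 121, 107 and 65.9 CPM (log2 1.09, SE 0.17, adjusted p = 0.00235), and LIG1, which seals those fragments, at 20.4, 20.2, 17.7 and 14.3 and 39.7, 42.6, 32.6 and 28.2 CPM (log2 0.98, SE 0.15, adjusted p = 0.00235). E2F2 was at 1.52, 1.75, 1.99 and 0.542 and 8.46, 6.61, 6.04 and 3.23 CPM (log2 2.08, SE 0.38, adjusted p = 0.00446). Ketogenic library 4 was the lowest of the ketogenic libraries in all 5 genes and above every high fat library in each. The 4 members that did not pass were POLE, the leading strand polymerase (log2 0.61, adjusted p = 0.0504), POLA1 of the primase complex (log2 0.55, 0.0639), the licensing factor CDT1 (log2 0.66, 0.0697) and the cyclin CCNE1 (log2 0.32, 0.0815), which are named after their values were seen. All 42 had an unadjusted p under 0.05, as did 4909 of all 16012 genes tested.

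The mean level of the replication list, on the scale of log2(CPM + 0.5) relative to the mean of the high fat libraries, was 0.14, 0.24, 0.08 and -0.45 in high fat libraries 1 to 4 and 1.35, 1.36, 1.15 and 0.56 in ketogenic libraries 1 to 4. The 2 diets did not overlap, and the fourth library was the lowest of each. Leaving out 1 library left 30 (without ketogenic 2) to 41 (without ketogenic 4) members called, and the ribosomal RNA covariate 38. Without the 3 libraries over 30% ribosomal RNA edgeR called 0 members, DESeq2 36 and limma voom 5. The edgeR median was then 1.10, with 40 of 42 at an unadjusted p under 0.05, against 2668 of 16367 genes tested there.

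Genes of G2 and mitosis were higher by a similar median but with a wider spread. Of 35 tested, 10 rose (28.6%) and 0 fell, with a median of 1.00, although all 35 were higher in every ketogenic library than in every high fat library (13.3% of all genes were). NDC80, a kinetochore protein, was at 13.6, 15.1, 13.8 and 4.6 CPM in high fat libraries 1 to 4 and at 27.7, 29.97, 26.6 and 21.3 CPM in ketogenic libraries 1 to 4 (log2 1.17, SE 0.30, adjusted p = 0.0184). CDK1, the mitotic kinase, was at 50.2, 56.8, 48.7 and 15.1 and 112, 109, 92.6 and 80.6 CPM (log2 1.21, SE 0.32, adjusted p = 0.024), and MAD2L1, of the spindle checkpoint, at 29.97, 30.5, 25.6 and 17.2 and 59.9, 59.8, 59.5 and 41.1 CPM (log2 1.09, SE 0.22, adjusted p = 0.00665). In all 3 high fat library 4 was the lowest, and the mean level of the list was 0.49, 0.62, 0.48 and -1.58 in high fat libraries 1 to 4 against 1.33, 1.35, 1.09 and 1.00 in the ketogenic ones. Without high fat library 4 the median was 0.69 and 16 members rose. Under library size scaling 19 rose and with the ribosomal RNA covariate 5. Without 1 of 5 other libraries fewer than 7 rose: 4 without high fat 1, 2 without high fat 3, 1 without ketogenic 1, 1 without ketogenic 2 and 3 without ketogenic 3. The call of NDC80 ended without ketogenic 1 or 2 (adjusted p up to 0.0615) and that of CDK1 without either or high fat 3 (up to 0.0728).

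Homologous recombination and the Fanconi pathway mend broken and cross-linked DNA during S phase. Of 28 genes tested, 20 rose (71.4%) and 0 fell, with a median of 0.91. FANCG, of the Fanconi core complex, was at 18.9, 21.9, 17.3 and 13.6 CPM in high fat libraries 1 to 4 and at 35.9, 40.4, 30.7 and 29 CPM in ketogenic libraries 1 to 4 (log2 0.93, SE 0.17, adjusted p = 0.0043), and RMI2, a partner of the BLM helicase, at 14.8, 15.6, 11.3 and 9.2 and 26.9, 26.02, 24.6 and 17.4 CPM (log2 0.90, SE 0.17, adjusted p = 0.00542). Neither gene overlapped, and both calls held without each library. The count for the list fell to 9 without ketogenic library 1, 8 without ketogenic library 2 and 13 without ketogenic library 3. Of 21 cyclins, cyclin-dependent kinases and inhibitors of G1, 9 rose (42.9%) and 0 fell, with a median of 0.24, and 3 rose without ketogenic library 2. They included both a brake and drivers of the cycle: CDKN2D, an inhibitor of CDK4 and CDK6 (log2 1.02, SE 0.17), the D cyclin CCND3 (log2 0.98, SE 0.18) and the phosphatase CDC25A (log2 1.11, SE 0.24), which activates CDK2, with adjusted p of 0.00298, 0.00444 and 0.00858. Of 25 replication-dependent histones, whose transcripts mostly lack a poly-A tail, 0 passed in edgeR or in the DESeq2 fit without the 3 libraries, and 2 had an unadjusted p under 0.05 (4909 of all 16012 genes tested). In edgeR 1 rose with the ribosomal RNA covariate and 1 fell without ketogenic library 4. Their median of -0.15 had no stable sign: it was 0.08 under scaling by library size, 0.80 with the covariate, and from -0.93 (without ketogenic 2) to 0.40 (without high fat 3) without single libraries.

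**Figure D3:**
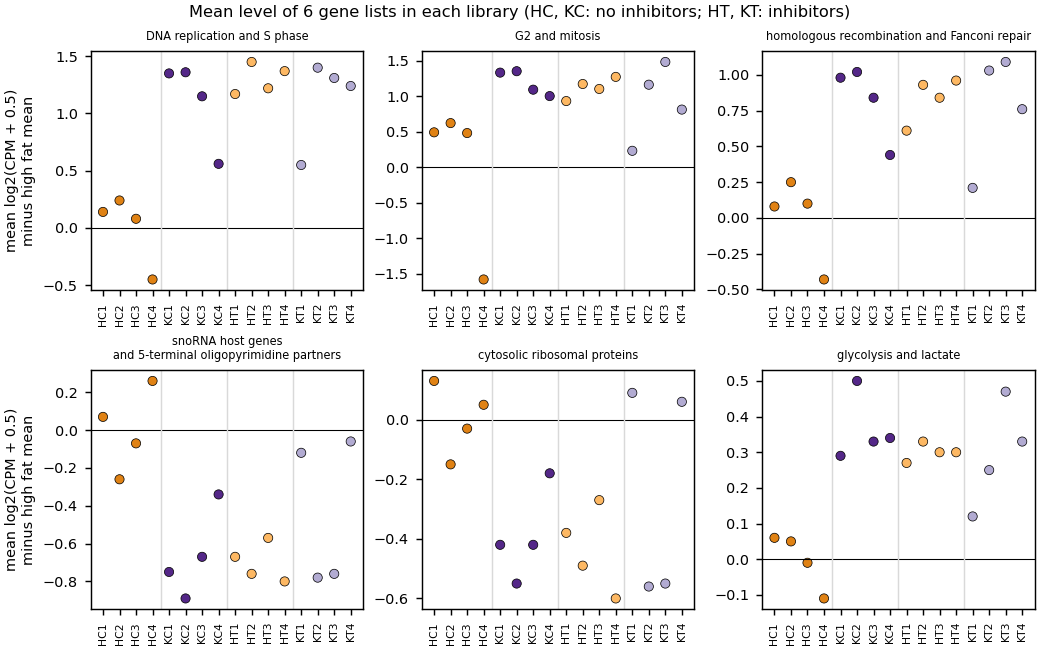
Mean log2(CPM + 0.5) of the tested members of 6 gene lists (y axis, log2 units relative to the mean of the 4 high fat libraries without inhibitors) in each of the 16 libraries (x axis: HC high fat and KC ketogenic without inhibitors, HT and KT the same diets with inhibitors). The replication list lies at -0.45 to 0.24 in HC and 0.56 to 1.36 in KC, HT and KT libraries lie at 0.55 to 1.45, and the mitosis list of HC4 stands at -1.58.

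The 10 largest rises in CPM were those of SERPINE2, HSP90AA1, PKM, TUBA1B, GNAS, ENO1, HSP90B1, HNRNPA2B1, TUBB and ACTB. SERPINE2, a secreted protease inhibitor, was at 2814, 3337, 2474 and 4247 CPM in high fat libraries 1 to 4 and at 4698, 6304, 4399 and 5768 CPM in ketogenic libraries 1 to 4 (log2 0.72, SE 0.17, adjusted p = 0.0114). The alpha tubulin TUBA1B was at 650.3, 652, 628 and 324 and 1397, 1507, 1107 and 894 CPM (log2 1.12, SE 0.26, adjusted p = 0.0114) and the beta tubulin TUBB at 502, 584, 554 and 337 and 1066, 1127, 834 and 749.9 CPM (log2 0.93, SE 0.21, adjusted p = 0.01). Both were lowest in high fat library 4, and both belong to families of similar genes whose reads may be shared. ACTB, cytoplasmic actin, was level on the high fat diet at 501, 534, 490.2 and 502 CPM and higher in every ketogenic library, at 1094, 983, 968 and 704 CPM (log2 0.89, SE 0.14, adjusted p = 0.00259). HNRNPA2B1, which binds nuclear RNA, rose from 593 ± 75.8 to 1052 ± 242 CPM (log2 0.83, SE 0.17, adjusted p = 0.00787), and GNAS, the stimulatory G protein alpha subunit, from 1185 ± 128 to 1788 ± 115 CPM (log2 0.59, SE 0.11, adjusted p = 0.00444). The other 4 are described with glycolysis and protein folding.

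Of 48 cytosolic ribosomal proteins tested, 5 fell (10.4%, against 5.51% of all genes) and 0 rose, with a median of -0.41, and 27 of 48 were lower in every ketogenic library than in every high fat library (12.2% of all genes were). RPL12, of the stalk base of the large subunit, was at 1455, 1168, 1396 and 1728 CPM in high fat libraries 1 to 4 and at 827, 686, 840.4 and 1070 CPM in ketogenic libraries 1 to 4 (log2 -0.75, SE 0.19, adjusted p = 0.0173). Ketogenic library 4 was nearest to the high fat libraries, and the diets did not overlap. The 10 largest falls by CPM included EEF1A1, RPL12, RPS3, RPL26, ACAN, PABPC1, RPL10, RPS3A and RPS16. EEF1A1, the elongation factor that delivers transfer RNAs, was at 10810, 9650, 10410 and 12110 and 7168, 6795, 7620 and 8824 CPM (log2 -0.50, SE 0.14, adjusted p = 0.0276). PABPC1, which binds poly-A tails, was at 1684, 1664, 1786 and 1681 and 1173, 1136, 1244 and 1407 CPM (log2 -0.46, SE 0.10, adjusted p = 0.00917). The ribosomal proteins RPS16, RPS3, RPL26, RPL10 and RPS3A had log2 changes of -0.57, -0.49, -0.58, -0.50 and -0.50, with adjusted p of 0.0441, 0.0477, 0.0487, 0.0464 and 0.036. Processed copies of these genes in the genome can share their reads. The calls of RPL12 ended without ketogenic 1 or 2 (adjusted p up to 0.0707), those of EEF1A1, RPL26, RPL10 and RPS3A without high fat 1, 3 or 4 or ketogenic 1, 2 or 3 (up to 0.0983, 0.155, 0.129 and 0.123) and those of RPS16 and RPS3 without any library but ketogenic 4 (up to 0.14 and 0.151). The count for the list was 0 to 3 without any library except ketogenic 4, and 16 without that one (0 without ketogenic 1 or 2, 1 without high fat 1, 3 or 4 or ketogenic 3, and 3 without high fat 2). Scaled by library size the list kept a negative median (-0.24) with 0 members called, and with the ribosomal RNA covariate 1 was called.

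The list of small nucleolar RNA host genes had the largest share of falls among the lists. These genes carry, in their introns, the RNAs that guide the modification of ribosomal RNA. The list also holds translation genes with the same pyrimidine-rich start, EEF1A1 among them. Of 25 tested, 9 fell (36.0%) and 0 rose, with a median of -0.54. GAS5, a growth-arrest transcript, was at 406, 315, 392.4 and 1156 CPM in high fat libraries 1 to 4 and at 150.3, 123, 177 and 255 CPM in ketogenic libraries 1 to 4 (log2 -1.69, SE 0.44, adjusted p = 0.0233). High fat library 4 was at 1156 CPM, the other 3 at 315 to 406, and without it the log2 change was -1.08. C6orf48 (also called SNHG32) was at 147, 101, 126 and 370.3 and 45.05, 28.4, 47.6 and 80.1 CPM (log2 -1.89, SE 0.49, adjusted p = 0.0219), with the same library highest. EPB41L4A-AS1, SNHG7 and SNHG8 did not overlap either, at 62.6, 43.98, 53.5 and 83.6, 142, 99.5, 107 and 105 and 122, 83.7, 106 and 130.2 CPM on the high fat diet against 16.1, 15.7, 18.7 and 34.3, 44.5, 40.4, 51.3 and 83.3 and 46.1, 34.6, 46.7 and 73.5 CPM on the ketogenic diet. Their log2 changes were -1.53, -1.05 and -1.14, with adjusted p of 0.0131, 0.0159 and 0.0163. The calls of GAS5 and C6orf48 ended without high fat 4 or ketogenic 1, 2 or 3 (adjusted p up to 0.0849 and 0.0788), that of EPB41L4A-AS1 without ketogenic 2 (0.0537) and those of SNHG7 and SNHG8 without ketogenic 1 or 2 (up to 0.0621 and 0.0619). For the list, 5 fell without high fat 4, 4 without ketogenic 3, 1 without ketogenic 1, 0 without ketogenic 2 and 6 without high fat 1, while DESeq2 without the 3 libraries over 30% ribosomal RNA called 10. Under library size scaling 0 were called, with a median of -0.37. Of 27 genes of ribosome biogenesis 3 fell (11.1%) and 0 rose, among them the nucleolar GTPase GNL3 (log2 -0.29, SE 0.07, adjusted p = 0.0186), whose call ended without any of ketogenic 1 to 3 (up to 0.0671). The list had 0 falls without any of those 3 and 1 without high fat 3. The median of that list was -0.07 and turned to 0.09 under library size scaling.

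Glycolysis was the fuel pathway with the largest share of calls. Of 25 genes of glycolysis and lactate metabolism, 11 rose (44.0%) and 0 fell, with a median of 0.34. PKM, the pyruvate kinase, was at 709, 738, 635 and 534 CPM in high fat libraries 1 to 4 and at 1384, 1757, 1266 and 1141 CPM in ketogenic libraries 1 to 4 (log2 1.08, SE 0.18, adjusted p = 0.00304). PGAM1, the phosphoglycerate mutase, was at 194, 203, 178 and 184 and 373, 482, 362 and 287 CPM (log2 0.99, SE 0.16, adjusted p = 0.00289), and LDHA, which makes lactate, at 418, 441, 395 and 412 and 618, 837, 661 and 618 CPM (log2 0.71, SE 0.14, adjusted p = 0.00563). Ketogenic library 2 was the highest and ketogenic library 4 the lowest in PKM and PGAM1, and no ketogenic library reached down to the high fat range in any of the 3. ENO1, the enolase, rose from 1169 ± 151 to 1690 ± 146 CPM (log2 0.53, SE 0.13, adjusted p = 0.0157), a call that ended without ketogenic library 2 (0.0629). Without that library 6 of the list rose, and 7 without high fat library 3. Of 19 genes of the pentose phosphate and one-carbon pathways 4 rose (21.1%) and 1 fell (5.26%), with a median of 0.07. The gene that fell was the mitochondrial folate enzyme ALDH1L2 (log2 -1.01, SE 0.25, adjusted p = 0.0156). ALDH1L2 was highest in high fat library 4 (107 CPM, others 39.6 to 51.2). Without it the log2 change was -0.58, and without ketogenic library 2 the call ended (0.052). Single libraries moved the rises of this list from 4 to 2 (without high fat 1 or 2) or to 1 (without high fat 3 or 4 or ketogenic 1, 2 or 3).

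Mitochondrial pathways had smaller shares of calls. Of 38 nuclear genes of the respiratory chain 7 rose (18.4%) and 0 fell, with a median of 0.17. NDUFV2 and NDUFC2 of complex I and SDHC of complex II rose by 0.58, 0.62 and 0.37, with adjusted p of 0.00563, 0.0102 and 0.0117, and all 3 calls held without each library. The list count was 4 without high fat 2 or 3 or ketogenic 3 and 3 without ketogenic 1 or 2. Of 21 citric acid cycle genes 4 rose (19.0%) and 0 fell, with a median of 0.12. PDHA1, of pyruvate dehydrogenase, was at 42.2, 40.6, 43.1 and 36.5 and 55.2, 56.3, 54.2 and 47.4 CPM (log2 0.39, SE 0.08, adjusted p = 0.00823). MDH1, the cytosolic malate dehydrogenase, rose by 0.44 (adjusted p = 0.00955). DLD, a subunit that several dehydrogenase complexes share, rose by 0.41 (adjusted p = 0.0118), which ended without ketogenic library 2 (0.0537), where 2 of the list rose.

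Of 12 enzymes and transporters of ketone bodies tested, 1 rose (8.33%) and 1 fell (8.33%), shares near those of all genes (7.99% and 5.51%), with a median of 0.12. AACS, which charges acetoacetate with coenzyme A for lipid synthesis in the cytosol, was at 72.2, 62.1, 71.4 and 60.9 CPM in high fat libraries 1 to 4 and at 47.8, 43.3, 49.8 and 51.4 CPM in ketogenic libraries 1 to 4 (log2 -0.47, SE 0.11, adjusted p = 0.012), and the ranges did not overlap. ACAT2, the cytosolic thiolase, was at 16.5, 14.9, 14.6 and 4.95 and 29.9, 26.4, 21.9 and 17.5 CPM (log2 0.91, SE 0.27, adjusted p = 0.0349), with high fat library 4 far below the rest. SLC16A1, the monocarboxylate carrier MCT1 for lactate and ketone bodies, was at 77.05, 77.9, 81.8 and 83.4 and 97.2, 96.02, 102 and 83.4 CPM, a difference of 0.24 that did not pass (adjusted p = 0.138). AACS lost its call without ketogenic library 2 (0.0528) and ACAT2 without high fat 3 or any of ketogenic 1 to 3 (up to 0.108). The count of rises was 2 without high fat library 4.

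Genes of fat handling were called in both directions, with falls only in the oxidation list, at a share near that of all genes. PLIN3, which coats nascent lipid droplets (chromosome 19, 4838341 to 4867768), had the smallest adjusted p of the genes named, at 34.1, 39.2, 31.2 and 31.97 CPM in high fat libraries 1 to 4 and at 65.9, 75.01, 64.8 and 69.6 CPM in ketogenic libraries 1 to 4 (log2 1.01, SE 0.11, adjusted p = 0.000623). Here ketogenic library 4 lay within its group, between libraries 1 and 2. CD36, a fatty acid transporter, was low but changed, at 0.205, 0.152, 0.144 and 0.158 and 1.005, 0.536, 0.584 and 1.07 CPM (log2 2.25, SE 0.44, adjusted p = 0.00582), and FABP5, an intracellular fatty acid carrier, was at 22.5, 16, 16.2 and 17.8 and 37.1, 45.1, 31.4 and 24.5 CPM (log2 0.93, SE 0.23, adjusted p = 0.0152; adjusted p = 0.0629 without ketogenic library 2). Of 31 genes of fatty acid synthesis, uptake and storage 4 rose (12.9%, against 7.99% of all genes) and 0 fell, with a median of 0.05. Of 37 genes of fatty acid oxidation and PPAR signalling 6 rose (16.2%) and 2 fell (5.41%, against 5.51% of all genes), with a median of 0.20. CPT1A, the gate of mitochondrial fatty acid entry, was at 18.8, 20.1, 18.3 and 24.3 and 30.5, 31.1, 27.3 and 25.97 CPM (log2 0.49, SE 0.11, adjusted p = 0.00892), and ACAA2, the last enzyme of the mitochondrial oxidation spiral, at 31.9, 35.4, 28.1 and 21.9 and 44.8, 41.8, 41.5 and 41.5 CPM (log2 0.53, SE 0.11, adjusted p = 0.00823). ACSL1, which activates long-chain fatty acids, moved the other way, at 90.9, 82.3, 103 and 93.01 and 55.7, 52.8, 52.2 and 64.3 CPM (log2 -0.71, SE 0.11, adjusted p = 0.00235). Calls of CPT1A, ACAA2, ACSL1, PLIN3 and CD36 held without each library, while the oxidation list kept 2 rises without ketogenic 1 or 2. In cholesterol synthesis 3 of 27 genes rose (11.1%, against 7.99% of all genes) and 0 fell, with a median of 0.06. FDPS, the farnesyl diphosphate synthase, rose by 0.53 (adjusted p = 0.0374), and its call ended without high fat 2 or 3 or ketogenic 1, 2 or 3 (up to 0.119). The count of 3 became 0 without high fat 3 or ketogenic 1 or 2, 1 without ketogenic 3 and 2 without high fat 2 or 4, and high fat library 4 had the lowest mean level of this list (-0.49, others 0.06 to 0.24).

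**Figure D4:**
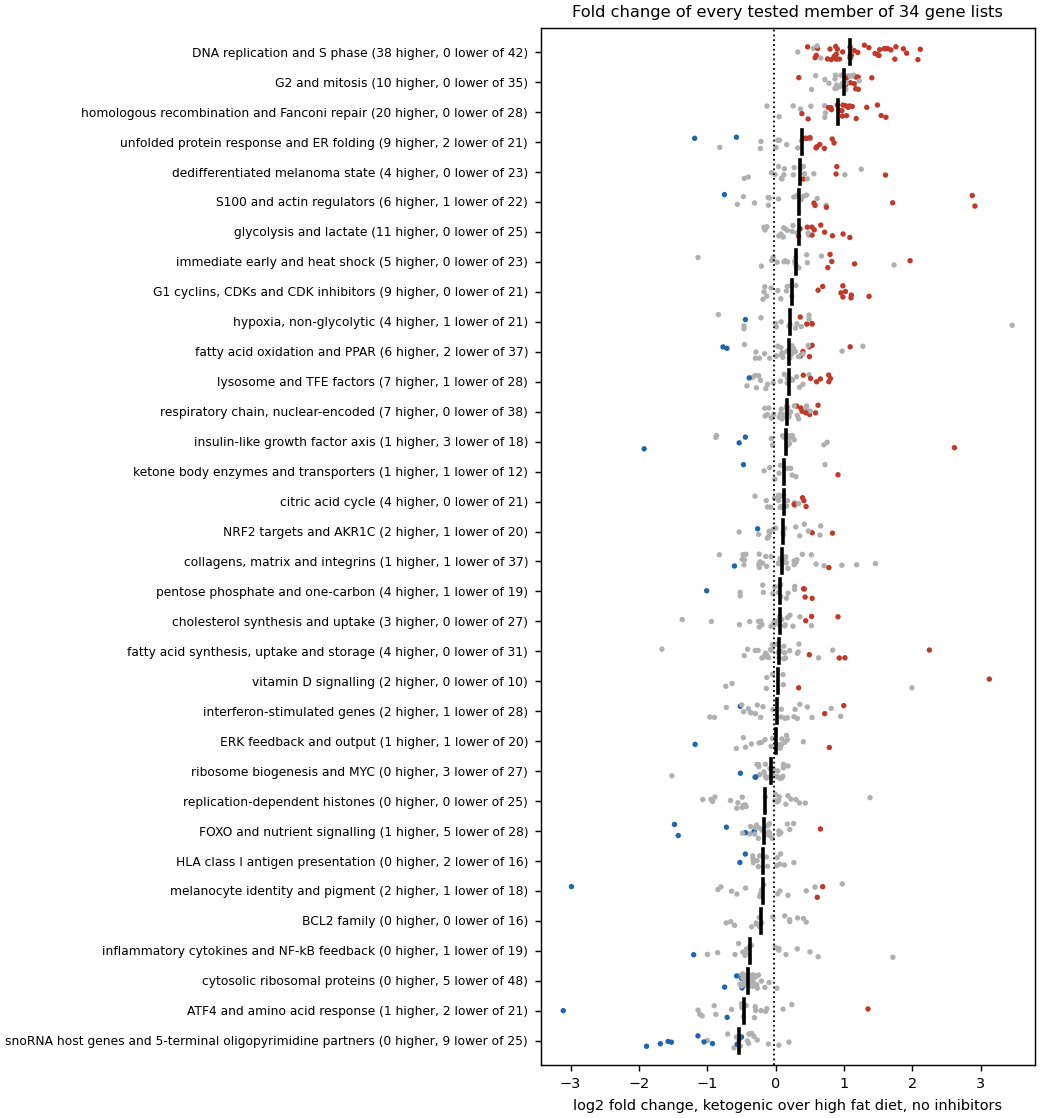
Log2 fold change of the ketogenic over the high fat diet without inhibitors (x axis) for each tested member of 34 gene lists (y axis, ordered by median), with red points for members that rose, blue for members that fell, grey for the others, a black bar for the list median and a dotted line for the median of all genes tested (-0.02). Replication stands at a median of 1.09, mitosis at 1.00, repair at 0.91 and small nucleolar RNA hosts at -0.54.

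Chaperones fold new proteins in the endoplasmic reticulum, the cytosol and mitochondria. Of 21 genes of the unfolded protein response and folding 9 rose (42.9%) and 2 fell (9.52%), with a median of 0.38. Without the 3 libraries over 30% ribosomal RNA the median was 0.08, with 0 called in edgeR and 4 rises and 1 fall in DESeq2. The falls were 0 without ketogenic 1 or 2 and 1 without high fat 3 or 4 or ketogenic 3. PDIA4, a disulfide isomerase, was at 261, 259.6, 235 and 277 CPM in high fat libraries 1 to 4 and at 518, 479, 459 and 376 CPM in ketogenic libraries 1 to 4 (log2 0.83, SE 0.14, adjusted p = 0.00296). PDIA6, another isomerase, rose by 0.60 (adjusted p = 0.00444), CRELD2, an endoplasmic reticulum stress protein, by 0.85 (0.00512) and HSP90B1, the reticulum's HSP90, by 0.43 (adjusted p = 0.0269). HSP90AA1, the inducible cytosolic HSP90, was at 816, 896, 807 and 507 and 1617, 2173, 1702 and 1243 CPM (log2 1.15, SE 0.21, adjusted p = 0.00444). The mitochondrial chaperonin HSPE1 rose by 0.82 (adjusted p = 0.00917). HSPA1B, an inducible HSP70 whose reads its near-identical neighbour HSPA1A can share, was at 43.1, 42.5, 36.7 and 21.5 and 180.2, 243, 82.6 and 56.02 CPM (log2 1.97, SE 0.61, adjusted p = 0.0469), a call that ended without any library except ketogenic 4 (up to 0.151). That of HSP90B1 ended without any of the first 3 libraries of either diet (up to 0.085). Of 23 immediate early and heat shock genes 5 rose (21.7%) and 0 fell, with a median of 0.30. The heat shock count was 2 without high fat 3 or ketogenic 2 and 3 without high fat 1 or 2 or ketogenic 1 or 3, and 8 without ketogenic 4.

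The amino acid response to ATF4 gave 3 calls. Of 21 tested 1 rose (4.76%, against 7.99% of all genes) and 2 fell (9.52%, against 5.51%), with a median of -0.47. SLC1A4, a neutral amino acid transporter, was at 139, 129.7, 142 and 194 and 95.4, 76.2, 101 and 97.7 CPM (log2 -0.71, SE 0.14, adjusted p = 0.00577), NUPR1, a stress-induced chromatin protein, was low and fell from 1.03 ± 0.973 to 0.12 ± 0.0904 CPM (log2 -3.11, SE 0.91, adjusted p = 0.0339), and VLDLR, the lipoprotein receptor, rose from 10.5 ± 1.31 to 26.7 ± 8.46 CPM (log2 1.35, SE 0.36, adjusted p = 0.0254). Without high fat library 4, in which the mean level of the list was 0.84 against -0.31 to -0.22 in the other 3, the median was -0.19. The calls of NUPR1 (without high fat 1 or 4 or ketogenic 1, 2 or 3, up to 0.108) and VLDLR (without high fat 1, 2 or 3 or ketogenic 1 or 2, up to 0.0955) depended on single libraries. In the lysosome 7 of 28 genes rose (25%) and 1 fell (3.57%), with a median of 0.19. The falls were 4 without ketogenic 4, 2 without high fat 4 and 0 without high fat 1 or 3 or ketogenic 1 or 2. ATP6V0D1, a subunit of the proton pump, was at 24.4, 28.3, 25.6 and 20.6 and 45.5, 46.6, 43.7 and 36.5 CPM (log2 0.80, SE 0.11, adjusted p = 0.00198). ATP6V1H of the same pump rose by 0.51 (adjusted p = 0.00242) and the membrane protein LAMP1 by 0.60 (0.00369), and all 3 calls held without each library.

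FOXO factors act when insulin signalling is low, and many of their targets respond to nutrients. Of 28 FOXO and nutrient signalling genes 5 fell (17.9%) and 1 rose, with a median of -0.17 that became 0.01 under library size scaling. ARRDC4, an arrestin that MondoA induces and that restrains glucose uptake, was at 31.4, 27.4, 35.6 and 28.8 CPM in high fat libraries 1 to 4 and at 9.39, 6.49, 11.7 and 18.4 CPM in ketogenic libraries 1 to 4 (log2 -1.43, SE 0.24, adjusted p = 0.00348). KLF9, a glucocorticoid-responsive factor, was at 444, 416, 489 and 442 and 294, 192, 289 and 312 CPM (log2 -0.72, SE 0.15, adjusted p = 0.00834). IRS2, an adaptor of the insulin receptor, was at 267, 284, 281 and 297 and 219.7, 189.9, 212 and 209 CPM (log2 -0.44, SE 0.12, adjusted p = 0.0195). None of the 3 overlapped, and IRS2 alone lost its call, without high fat 3 or ketogenic 2 (up to 0.0759). The list had 3 falls without high fat 1 or ketogenic 1 or 3, and 2 without high fat 3 or ketogenic 2. In the insulin-like growth factor axis 3 of 18 fell (16.7%) and 1, IGFBP5, rose, with a median of 0.15. PAPPA and the RNA-binding protein IGF2BP2 (184, 189, 211 and 180.2 against 134, 105, 138 and 149.6 CPM, log2 -0.53, SE 0.12, adjusted p = 0.0101) also fell, and without high fat library 4 the axis had 3 rises.

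Of 20 ERK feedback and output genes 1 rose (EPHA4, an ephrin receptor, log2 0.78, SE 0.24) and 1 fell (SPRY1, a feedback inhibitor, log2 -1.18, SE 0.37), with adjusted p of 0.0411 and 0.0438 and a median of 0.00. The shares of 5% each were below those of all genes (7.99% and 5.51%). Both depended on single libraries (EPHA4 on high fat 1 and 3 and ketogenic 1 to 3, up to 0.119; SPRY1 on all but ketogenic 4, up to 0.138), and 3 members rose without high fat library 4 and 2 without ketogenic library 4. Of 18 melanocyte genes 2 rose (11.1%) and 1 fell (5.56%), with a median of -0.19. DCT, a melanin enzyme, was at 5.39, 2.56, 4.47 and 1.38 and 0.51, 0.23, 0.584 and 0.412 CPM (log2 -2.99, SE 0.65, adjusted p = 0.00937). RAB27A, which carries melanosomes, rose by 0.61 (adjusted p = 0.00463). Of 23 genes of the dedifferentiated state 4 rose (17.4%) and 0 fell, with a median of 0.36. CTGF and CYR61, matricellular targets of YAP, were at 4.34, 5.28, 5.36 and 6.49 and 10.4, 12.9, 9.36 and 8.99 CPM on the high fat diet against 22.7, 13.97, 12.1 and 16.6 and 23.7, 15.6, 19.6 and 17.9 CPM on the ketogenic diet (log2 1.61 and 0.88, adjusted p = 0.00444 and 0.00916). F2RL1, a protease-activated receptor, rose by 0.89 (adjusted p = 0.02; up to 0.0797 without high fat 1 or 3 or ketogenic 1 or 2). That list had 8 rises without high fat library 4 and 2 without high fat 1 or 3 or ketogenic 1 or 2. Among 37 collagens, matrix proteins and integrins 1 rose (2.7%), the integrin ITGB5 (log2 0.78, SE 0.14, adjusted p = 0.00397), and 1 fell (2.7%), the fibrillar collagen COL5A1 (log2 -0.60, SE 0.14, adjusted p = 0.0127), while 5 rose without high fat library 4.

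Immune and other stress lists gave at most 7 calls each, where 7.99% of all genes rose and 5.51% fell. Of 28 interferon-stimulated genes 2 rose (7.14%), ISG15 (log2 1.00, adjusted p = 0.0337) and OAS3 (log2 0.72, 0.0376), and 1 fell (3.57%), IFIT2 (log2 -0.52, 0.0338), with a median of 0.02. Both shares were below those of all genes. Of 16 HLA class I genes 2 fell (12.5%), HLA-E among them (log2 -0.44, adjusted p = 0.0464), and of 19 cytokine and NF-kB feedback genes 1 (5.26%), BIRC3 (log2 -1.20, adjusted p = 0.0346). Each of these 5 calls was lost without 5 or more of the 8 libraries, with adjusted p up to 0.0994, 0.132, 0.118, 0.159 and 0.0849 in the order given, always including high fat 3 and ketogenic 2. Without 1 library at a time the interferon list gave 0 to 2 rises and 0 to 3 falls. In the list of NRF2 targets 2 of 20 rose (10%), such as the steroid-metabolising AKR1C2 (log2 0.83, SE 0.25, adjusted p = 0.0367, up to 0.127 without high fat 2 or 3 or ketogenic 1 or 2), and 1 fell (5%). In hypoxia genes 4 of 21 rose (19.0%), such as the collagen hydroxylase P4HA1 (log2 0.53, adjusted p = 0.0154), with 2 left without high fat 3 or with the ribosomal RNA covariate and 1 without ketogenic 2, and 1 fell, the MYC antagonist MXI1 (log2 -0.44, adjusted p = 0.0156, up to 0.0661 without high fat 3 or ketogenic 1 or 2). Of 10 vitamin D genes 2 rose (20%), CYP24A1 and the retinoid receptor partner RXRA (log2 0.34, adjusted p = 0.0495, up to 0.16 without any library but ketogenic 4). Of 22 S100 and actin regulators 6 rose (27.3%), S100A3 and CORO1A among them, and 1 fell, with a median of 0.34, and 11 rose without high fat library 4, 3 without high fat 3 and 1 without ketogenic 2. In the BCL2 family edgeR called 0 of 16, with 6 at an unadjusted p under 0.05 (4909 of all 16012 genes tested), and DESeq2 without the 3 libraries over 30% ribosomal RNA also called 0. In edgeR 1 rose and 1 fell with the covariate, 1 rose without high fat 4 and 2 fell without ketogenic 4.

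The small counts above take in 24 more genes. In FOXO and nutrient signalling these were TXNIP, the close relative of ARRDC4 that also restrains glucose uptake, at 386, 323, 433 and 357 CPM in high fat libraries 1 to 4 and at 96.6, 54.3, 103 and 283 CPM in ketogenic libraries 1 to 4 (log2 -1.48, SE 0.42, adjusted p = 0.0319) and the cyclin CCNG2 (log2 0.65). TXNIP did not overlap between the diets. In one-carbon and pentose metabolism they were TALDO1 (0.42), MTHFD1 (0.41) and PAICS (0.43), in the citric acid cycle PDHB (0.27), in fatty acid oxidation CPT1B, the muscle form of the entry enzyme (log2 -0.77). In storage it was HILPDA, an inhibitor of lipid breakdown (0.49), and in cholesterol synthesis HSD17B7 (0.44). In ribosome biogenesis NOB1 (-0.52) and WDR43 (-0.30) fell. In the unfolded protein response the sensor ERN1 (log2 -1.19) and its target DNAJB9 (-0.58) fell, the latter by -0.35 without high fat library 4. In the heat shock list KLF2 (0.80) and HSPH1 (0.76) rose, and in hypoxia P4HA2 (0.53), ERO1A (0.45) and BNIP3L (0.36). The rest were HLA-F (-0.52), the kinase CDK2, which neighbours the pigment gene PMEL and is listed with melanocyte genes (0.69), the NRF2 target SRXN1 (-0.26), the secreted Wnt ligand WNT5A (0.41), the lysosomal ceramidase ASAH1 (-0.39) and the smooth muscle actin ACTA2 (-0.75). TALDO1, HSD17B7, NOB1, WDR43, HSPH1, ERO1A, HLA-F, CDK2 and SRXN1 were selected by the naming rule, as members of a list with the smallest p. The rest of the 24 were named after their values were seen. Of all 24 calls, CPT1B alone held without each library (adjusted p up to 0.0484). The others ended without single libraries, 23 of them without ketogenic 2, 20 without high fat 3, 20 without ketogenic 1, 14 without high fat 1, 14 without ketogenic 3, 11 without high fat 2, 11 without high fat 4 and 4 without ketogenic 4, with adjusted p up to 0.152.

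The same diets were compared in the 8 libraries from mice given the inhibitors, which share no library with the comparison above. There 27 genes (0.169%) differed, 8 higher and 19 lower on the ketogenic diet, and 0 members of the 34 lists were called. Of the 2163 genes called without inhibitors, 761 had the same sign with them, 1402 the opposite sign, and 8 were called in both, 1 of them with the same sign. Across all genes tested, the log2 changes of both comparisons had a Pearson r of -0.182 and a Spearman rho of -0.211, a description over genes that are not independent. The difference between the diet effects was tested directly as an interaction, whose estimate shares its libraries with the effects themselves: 1444 genes (9.02%) passed, 698 with a positive (4.36%) and 746 with a negative estimate (4.66%), 1013 of them among the 2163, and in each of those 1013 the interaction ran against the untreated diet effect. With the covariate for ribosomal RNA 30 interactions were called, and without the 3 libraries over 30% ribosomal RNA 0 in edgeR (2919 at an unadjusted p under 0.05), 780 in DESeq2 and 394 in limma voom.

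The levels in the groups with inhibitors are set beside those without. E2F1 was at 38.2 ± 5.996 CPM on the high fat and 32.6 ± 7.52 CPM on the ketogenic diet (log2 -0.23, interaction -1.91, adjusted p = 0.00585). TFRC was at 219 ± 22.1 CPM on the high fat and 152 ± 66.8 CPM on the ketogenic diet (log2 -0.52, interaction -3.04, adjusted p = 0.0104), and PLIN3 at 70.02 ± 9.69 CPM on the high fat and 67.8 ± 5.6 CPM on the ketogenic diet (log2 -0.05, interaction -1.06, adjusted p = 0.00421). PKM was at 1729 ± 189 CPM on the high fat and 1596 ± 407 CPM on the ketogenic diet (log2 -0.12, interaction -1.20, adjusted p = 0.0154). GAS5 was at 128 ± 27.9 CPM on the high fat and 212 ± 113 CPM on the ketogenic diet (log2 0.73, interaction 2.42, adjusted p = 0.0315), and ARRDC4 at 7.13 ± 1.9 CPM on the high fat and 11.4 ± 1.28 CPM on the ketogenic diet (log2 0.67, interaction 2.1, adjusted p = 0.00637). In all 6 genes both inhibitor groups lay on the ketogenic side of the untreated high fat mean. IGFBP5 was at 19.6 ± 4.89 CPM on the high fat and 25.7 ± 18.7 CPM on the ketogenic diet, also above the untreated high fat mean but with both means below every ketogenic library without inhibitors (log2 0.39, interaction -2.23, adjusted p = 0.0609). The replication list was at a mean of 1.17 to 1.45 in the high fat libraries with inhibitors and 0.55 to 1.40 in the ketogenic ones, on the scale relative to untreated high fat libraries used above. Its median diet effect with inhibitors was -0.11, and 33 of its 42 members passed the interaction test.

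Among genes with at least 5 CPM in any of the 4 groups, the 5 lowest interaction estimates that passed were those of CYP24A1 (-3.83), ESM1, an endothelial proteoglycan (-3.44), DKK1 (-3.17), CORO1A (-3.06) and TFRC, and the 5 highest those of the non-coding RNA LINC00663 (3.41), the membrane protein TMEM59L (2.91), BEST1 (2.89), LGI4, a ligand of Schwann cell development (2.88), and WIPF3 (2.84). ESM1, TMEM59L and LGI4 did not pass between the untreated diets (log2 0.91, -1.04 and -1.23, adjusted p = 0.306, 0.0597 and 0.0813). ESM1 passed without high fat 4 (log2 1.89, adjusted p = 0.0318) and was at 0.61 without high fat 1, while TMEM59L and LGI4 passed without ketogenic 4 (adjusted p = 0.0379 and 0.0251, edgeR). ESM1 was at 12.1 ± 4.36 CPM on the high fat and 2.1 ± 1.65 CPM on the ketogenic diet with inhibitors, and without them at 0.253, 0.65, 0.287 and 1.87 CPM in high fat libraries 1 to 4 and 0.897, 1.65, 1.44 and 1.87 CPM in ketogenic libraries 1 to 4. LINC00663 passed without inhibitors (log2 -1.57, SE 0.45, adjusted p = 0.03), a call that ended without high fat 1 or 3 or ketogenic 1, 2 or 3 (up to 0.104).

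**Figure D5:**
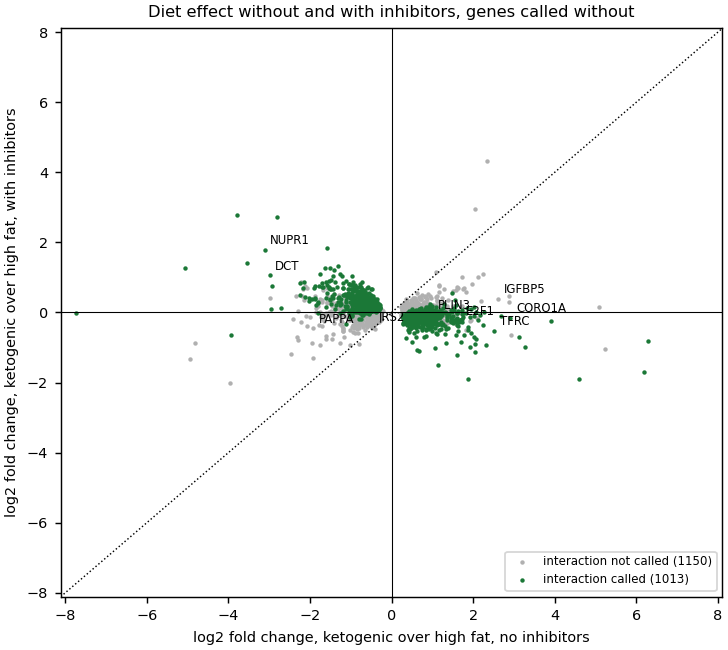
Log2 fold change of the ketogenic over the high fat diet without inhibitors (x axis) against the same with inhibitors (y axis) for the 2163 genes called without inhibitors, with the 1013 genes past the interaction test in green and a dotted line where both effects would be equal. Most points lie near 0 on the y axis, 1402 have opposite signs, and the empty band around 0 on the x axis follows from showing called genes only.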

How the data were processed

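Poly-A RNA was sequenced from 16 libraries, 8 of which are compared here. The authors deposited expected counts, RSEM's estimated counts, of 26475 gene symbols with no scaling for depth, and the 13% of values that were not whole were rounded. Per the submitters' processing notes the tools include RSEM 1.2.15 and Bowtie2 2.1.0, and the build is hg38. What each did, the gene annotation, the strand setting and the handling of mouse reads are points not given in the sources used here. The expected counts were filtered with filterByExpr (16012 genes left), scaled by TMM to counts-per-million (CPM), and fitted by robust quasi-likelihood in edgeR 4.0.16 under R 4.3.3 with all 16 libraries in 4 group means, two-sided, with Benjamini-Hochberg adjustment and a threshold of 0.05. Alternatives were other scalings, filters and library sets, a replicate block, a ribosomal RNA covariate, DESeq2 1.42.0 and limma 3.58.1. Methods were tested on simulated data.

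The members and gene lists were chosen with earlier results of these data known. Genes were named by this rule: the 12 largest rises and 12 largest falls by fold among called genes without overlap whose higher diet averaged 5 CPM or more, the 10 largest of each by CPM with ribosomal RNA left out, 3 members of each list by smallest p, and the 5 highest and 5 lowest called interactions with 5 CPM or more in any group. Other genes are named as chosen after their values were seen, and some that the rule selects are not reported here. Gene lists are described by counts and medians, with no test. Gene positions are GENCODE 29 (GRCh38), promoters RefSeq GRCh38.p14 (35116 windows).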

Additional observations from a re-analysis of the deposited data

Results flagged for a closer look

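In 21 of 284 groups of 4 libraries examined (each diet for the 141 named genes and the ribosomal RNA share), 1 library stood so far from the other 3 that its gap to the nearest, as a share of the range, exceeded Dixon's critical value. Chance marks about 1 in 20 groups, and genes that move together are not independent. High fat library 4 accounted for 11 of them. High fat library 2 was above its group in IGFBP5 (16.5) and E2F1 (13.6), in CPM. High fat library 3 was above its group in PABPC1 (1786) and below its group in CCNE1 (9.33), in CPM. High fat library 4 was above its group in S100A3 (4.41), DKK1 (6.46), BEST1 (47.5), COL15A1 (93.2), GAS5 (1156) and TMEM59L (72.3) and below its group in NDC80 (4.6), TUBA1B (324), ACAT2 (4.95), MTHFD1 (70.2) and PAICS (168), in CPM. Ketogenic library 1 was above its group in ACAA2 (44.8), in CPM. Ketogenic library 2 was above its group in S100A3 (43.1), in CPM. Ketogenic library 4 was above its group in EPB41L4A-AS1 (34.3) and below its group in POLA1 (38.6), CCNE1 (10.9) and MAD2L1 (41.1), in CPM.

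The diet effect differed between mice with and without inhibitors in 1444 genes by the interaction term, 75 of them named here. Estimates are the effect with inhibitors minus the effect without, on the log2 scale, and share the untreated libraries with the diet effect itself. Negative estimates, largest first, were those of CYP24A1 (-3.83), ESM1 (-3.44), DKK1 (-3.17), CORO1A (-3.06), TFRC (-3.04), CD36 (-2.61), RRM2 (-2.33), LRRC17 (-2.25), E2F2 (-2.08) and CTGF (-1.96). Next came E2F1 (-1.91), FEN1 (-1.66), CDC25A (-1.47), EPHA4 (-1.47), MAD2L1 (-1.28), F2RL1 (-1.26), HSP90AA1 (-1.22), PKM (-1.20), CDKN2D (-1.14) and CCND3 (-1.11). These were followed by PLIN3 (-1.06), LIG1 (-1.04), PGAM1 (-1.02), TUBB (-1.01), HSPE1 (-0.96), POLE (-0.95), WNT5A (-0.92), ATP6V0D1 (-0.90), ACTB (-0.89) and ITGB5 (-0.89). Then came LDHA (-0.86), FANCG (-0.84), HNRNPA2B1 (-0.82), CRELD2 (-0.78), SERPINE2 (-0.78), NDUFC2 (-0.77), PDIA4 (-0.73), ATP6V1H (-0.71), LAMP1 (-0.67) and CCNE1 (-0.62). Next came CPT1A (-0.60), DLD (-0.55), PDIA6 (-0.54), MDH1 (-0.49) and SDHC (-0.41). Positive estimates, largest first, were those of NUPR1 (4.90), DCT (4.05), LINC00663 (3.41), TMEM59L (2.91), BEST1 (2.89), LGI4 (2.88), WIPF3 (2.84), C6orf48 (2.60), ITIH6 (2.54) and GAS5 (2.42). After these stood TXNIP (2.41), COL15A1 (2.28), RHBDL1 (2.26), EPB41L4A-AS1 (2.24), ARRDC4 (2.1), MTRNR2L1 (2.06), DNHD1 (1.78), SNHG8 (1.67), SNHG7 (1.58) and ALDH1L2 (1.52). Smaller were ACAN (1.27), ACTA2 (1.24), RPL12 (1.2), CPT1B (0.94), IGF2BP2 (0.91), KLF9 (0.77), RPL10 (0.75), ACSL1 (0.63), AACS (0.55) and PABPC1 (0.54). Adjusted p ran from 0.00421 (FEN1) to 0.0468 (ITIH6) in edgeR.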

How the results depend on the processing

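The 2163 genes that differed between untreated diets were 778 to 2640 when single libraries were left out (lowest without ketogenic 2, highest without ketogenic 4), and 705 were called in all 8 of those fits. The count was 3346 in a fit of only the 8 libraries, 3151 in DESeq2, 6393 with limma voom and quality weights, 10 when the fold had to exceed 1.5, and, chosen after seeing the data, without the 3 libraries over 30% ribosomal RNA, 0 in edgeR, 860 in DESeq2 and 306 in limma voom. The 27 genes with inhibitors were 1 under library size scaling, 0 with the ribosomal RNA covariate (848 at an unadjusted p under 0.05), 0 with a 1.5-fold minimum (edgeR), 66 without both libraries numbered 4 (also chosen after seeing the data), 345 in DESeq2, 1057 in limma voom and 6 to 64 without single untreated libraries; without the 3 libraries they were 3, 218 in DESeq2 and 899 in limma voom. The 1444 interactions were 238 under library size scaling, 30 with the covariate, 1 with a 1.5-fold minimum, 2474 without both libraries numbered 4, 2487 in DESeq2, 5208 in limma voom and 407 to 2144 without single libraries; without the 3 libraries they were 0, 780 in DESeq2 and 394 in limma voom. The cause of these differences was not tested. RLE factors, removal of ribosomal RNA genes, no filter on low counts and a filter of 1 CPM in 4 libraries moved no count by over 1.5 times.

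The log2 difference in ribosomal RNA share stayed negative, at -0.20 to -0.63 without single libraries. A smaller group leaves the permutation test fewer assignments, so no conclusion was drawn from its p-values there. Of 133 named genes called, 0 reversed under the 23 alternatives, 62 kept their call without each single library, 89 under library size scaling and 107 with the covariate. Every alternative reuses libraries in which these genes were called, so a kept direction is no separate support. The labels give replicate numbers but no pairing, and the main fit did not pair libraries. Same-numbered libraries had correlations of deviations of 0.009, 0.097, -0.081 and 0.03. Differently numbered libraries were not compared this way, so these values cannot decide whether the numbers pair libraries. With the replicate block 2241 genes were called, 1967 of them shared with the 2163. Precision is limited by 4 libraries per group and by the gene-level counts of low genes such as NUPR1 and CD36.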
